A study of Mus musculus with 54 samples.

Results

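The livers of 3 hyper-accurate Mrps12ha/ha mice were compared with the livers of 3 wild-type Mrps12+/+ mice. Mrps12 encodes MRPS12, the protein of the small mitochondrial ribosomal subunit that lies at the decoding site, and the ha allele exchanges a lysine there for a threonine. The livers were chosen by tissue and genotype alone, so no measured value entered the choice, and they make up 6 of the 18 pooled mouse and tissue profiles of the series. The remaining profiles were 3 error-prone Mrps12ep/ep livers, whose ep allele exchanges the neighbouring lysine for an isoleucine, and the hearts of the same genotypes. All mice were of the C57BL/6 strain, were 20 weeks old and had been fed a high-fat diet (HFD) with 42% of energy from fat, so the wild-type livers are HFD livers as well and no livers from another diet were compared. The mutations are carried in every tissue from conception, and whole liver RNA was extracted, so fewer cells of a type and less RNA per cell cannot be told apart in these values. Wild-type animals were age- and litter-matched, and the mice of 1 genotype were separate animals.

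Mitochondrial ribosomes translate the few messages that mitochondrial DNA encodes for the respiratory chain, and all other mitochondrial proteins are made in the cytosol and imported. Hepatocytes, the main cells of the liver, store and release glucose, make fatty acids and cholesterol, secrete most plasma proteins and degrade amino acids and drugs. Many of these programmes are set by hormones (insulin, growth hormone and glucocorticoids), by feeding time and by a small circle of transcription factors that includes FOXA2, HNF4A and C/EBPα.

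The levels given are counts scaled by the depth of each liver (normalized counts), and fold changes are differences of log2(normalized count + 1) with the standard error (SE) of a limma fit to all 9 livers. Reads assigned to genes ran from 61935755 to 67825945 in Mrps12+/+ livers and from 21238039 to 81518235 in Mrps12ha/ha livers, with 23805012 to 73408187 in Mrps12ep/ep livers, and 1 read was worth 0.683 to 2.38 normalized counts. All 14 hepatocyte markers that were found were detected, and their summed normalized counts were 7248278, 6909411 and 6560940 in the Mrps12+/+ and 7779534, 7693249 and 8060399 in the Mrps12ha/ha livers. Each group held livers that stood apart. The 20 skeletal muscle markers summed to 40443 and 53754 in Mrps12+/+ mice 1 and 2 but to 700 in mouse 3 and to 740, 774 and 2592 in the Mrps12ha/ha livers. The 28 acute phase genes summed to 5479449 in Mrps12+/+ mouse 3, against 1164146 to 1232881 in the other Mrps12+/+ livers and 1057305 to 1152217 in the Mrps12ha/ha livers. The 9 erythroid markers summed to 185062 in Mrps12ha/ha mouse 1, against 62314 and 79353 in the other Mrps12ha/ha livers. Of the muscle markers 2 were listed at 0 in all Mrps12ha/ha livers. The part of these differences in the results that follow was not tested.

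**Figure D1:**
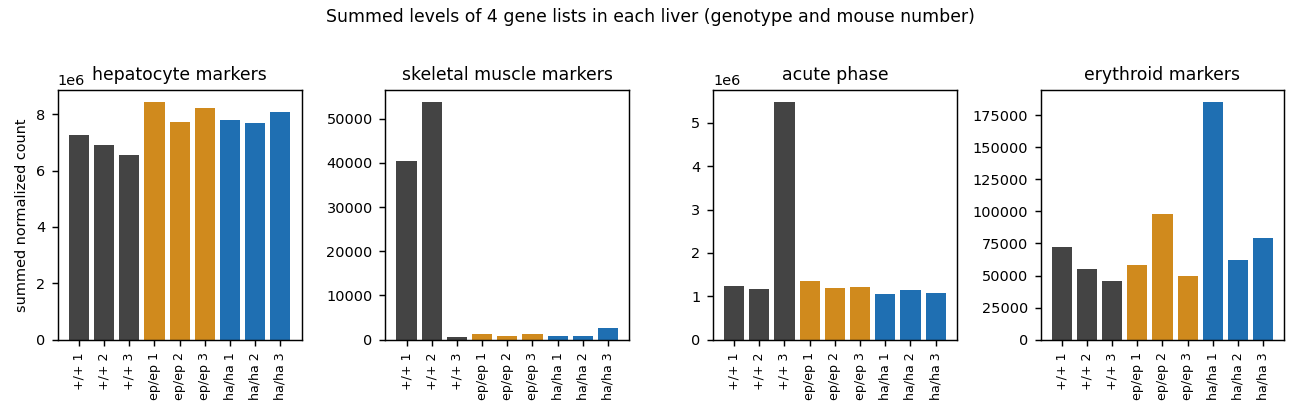
Summed normalized counts of hepatocyte, skeletal muscle, acute phase and erythroid genes in each of the 9 livers, with mice numbered within genotype (grey +/+, orange ep/ep, blue ha/ha). Hepatocyte markers lay between 6560940 and 8421828 in every liver, whereas muscle genes were high in +/+ mice 1 and 2, acute phase genes in +/+ mouse 3 and erythroid genes in ha/ha mouse 1.

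Of 15314 genes with a mean of at least 10, 1 passed an adjusted p of 0.05 in Mrps12ha/ha against Mrps12+/+ livers (0.00653%), and it was lower. At an unadjusted p of 0.05 there were 1083 genes higher (7.07%) and 1080 lower (7.05%). In 1539 genes (10.0%) all 3 Mrps12ha/ha values lay above all 3 Mrps12+/+ values, and in 1503 genes (9.81%) all lay below. These shares are the background against which the gene lists below are read. The median log2 fold change over all genes was -0.02. With 3 mice against 3, an exact two-sided permutation test of a single gene cannot go below 0.1, which is the value for each gene whose groups do not overlap. A further 48 genes had an adjusted p between 0.0584 and 0.0988, 21 of them higher and 27 lower, and none of those 48 is called here. The count depended on single livers. No gene passed without Mrps12ha/ha mouse 3 (lowest adjusted p 0.0536, with 1567 genes at an unadjusted p of 0.05), whereas 90 passed without Mrps12+/+ mouse 2 and 76 without Mrps12+/+ mouse 3, of which 16 were shared. Without Mrps12+/+ mouse 1 there were 6, and without Mrps12ha/ha mouse 1 and mouse 2 there were 2 and 6. Of the 76 genes that passed without Mrps12+/+ mouse 3, 10 were higher and 66 lower. The lower ones included skeletal muscle genes such as Myh4 and Tnni2, which were high in Mrps12+/+ mice 1 and 2. The median of the skeletal muscle markers was -8.10 in that setting. With both wild-type livers of high muscle marker sums left out, only Mrps12+/+ mouse 3 is left, the liver of high acute phase genes. It is then assumed to vary like the other genotypes, so no count of genes is given for that fit. The acute phase median was -2.17 there, against -0.76 with all livers.

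The gene that fell was Cyp2a22, a cytochrome P450 of the Cyp2a family on chromosome 7 (GRCm38 chr7:26931631-26939384, - strand). It had 407, 640 and 1448 reads in the Mrps12+/+ livers and 0, 1 and 1 in the Mrps12ha/ha livers, with an adjusted p of 0.00842. Taking 3 reads per liver as the limit that an undetected gene allows, it was at least 161-fold lower in the Mrps12ha/ha livers. The Mrps12ep/ep livers had 3, 0 and 0 reads. The gene starts 1808 kb from Mrps12, which is on the same chromosome (chr7:28739641-28741820, - strand). Other members of the family lay on both sides of wild type. Cyp2a5, which in mice hydroxylates coumarin, was at 20144, 19055 and 9317 in Mrps12+/+ and 53451, 53279 and 43826 in Mrps12ha/ha livers, without overlap and with a log2 fold change of 1.71 ± 0.27 (adjusted p = 0.0722). Cyp2a12 was at 21414, 22392 and 16568 in Mrps12+/+ and 33092, 39412 and 32666 in Mrps12ha/ha livers, with a log2 fold change of 0.81 ± 0.14 (adjusted p = 0.0851). Cyp2a4 was at 1236, 160.1 and 408 in Mrps12+/+ and 469, 19.8 and 129 in Mrps12ha/ha livers, with overlap and a log2 fold change of -2.00 ± 1.05 (adjusted p = 0.426) that ran from -3.06 to -0.81 when 1 liver was left out. In the Mrps12ep/ep livers the log2 fold changes against the same wild-type livers were 1.38 for Cyp2a5 and 0.76 for Cyp2a12. These genes share sequence: 34.6% of the 31-base stretches of Cyp2a22 also occur in Cyp2a12, and 44.9% of those of Cyp2a5 occur in Cyp2a4, so reads can be split between copies and the single values are uncertain. Of the 194 tested genes that start within 5 Mb of Mrps12, 14.9% were higher without overlap and 5.15% lower, against 10.0% and 9.81% over all genes.

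Mrps12 itself was at 1508, 1707 and 1737 in Mrps12+/+ and 1626, 1915 and 1847 in Mrps12ha/ha livers, with overlap between the groups and a log2 fold change of 0.12 ± 0.10 (adjusted p = 0.609), with 0.06 without Mrps12+/+ mouse 1, and 0.19 or 0.07 without Mrps12ha/ha mouse 1 or 2. The allele is a substitution, so its RNA level does not check the genotype labels.

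Among the named genes above wild type, Rgs3, an accelerator of GTP hydrolysis by G proteins, was at 229, 317 and 184 in Mrps12+/+ livers and 1178, 2878 and 1385 in Mrps12ha/ha livers, a log2 fold change of 2.81 ± 0.34 (adjusted p = 0.0584). The lowest Mrps12ha/ha liver was thus well above the highest wild-type liver, and the Mrps12ep/ep livers, at 314, 255 and 422, lay close to wild type. Spry4, an inhibitor of receptor tyrosine kinase signalling, was at 379.9, 454 and 299 in Mrps12+/+ and 878, 1610.1 and 1262 in Mrps12ha/ha livers (1.70 ± 0.23, adjusted p = 0.0584). Unlike Rgs3, Spry4 was also higher in the Mrps12ep/ep livers, at 882, 932 and 1147. Gata4, a transcription factor of the endoderm and heart, was at 485, 581 and 438 in Mrps12+/+ and 854, 879.8 and 912 in Mrps12ha/ha livers (0.82 ± 0.13, adjusted p = 0.0722). The zinc finger gene Cxxc5 was at 1185, 1421 and 1324 in Mrps12+/+ and 2028, 2566 and 2033 in Mrps12ha/ha livers (0.75 ± 0.12, adjusted p = 0.0722). Bahcc1, Depdc7, Ttbk1, Tango2, Cyp3a25 and Cela1 completed the 12 genes of smallest p above wild type, with log2 fold changes of 0.98, 0.70, 1.73, 0.70, 0.89 and 1.55.

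Among the genes below wild type, Trp53inp1, a stress-induced partner of p53, was at 9932, 6429 and 6728 in Mrps12+/+ and 3461, 2805 and 2784 in Mrps12ha/ha livers (-1.33 ± 0.17, adjusted p = 0.0584). Ddit4, whose product REDD1 restrains mTORC1, was at 3120.3, 1234 and 2315 in Mrps12+/+ and 562, 284 and 364 in Mrps12ha/ha livers (-2.42 ± 0.35, adjusted p = 0.0722). Tat, tyrosine aminotransferase, the first enzyme of tyrosine breakdown and a classical glucocorticoid-induced gene of hepatocytes, was at 220456, 126481 and 138916 in Mrps12+/+ and 60991, 58176 and 47198 in Mrps12ha/ha livers (-1.51 ± 0.23, adjusted p = 0.0722). By the rule that named these genes, every Mrps12ha/ha liver lay below every wild-type liver in each. For Tat the Mrps12ep/ep livers, at 231094, 185339 and 184606, overlapped with wild type and lay above all Mrps12ha/ha livers. Rasd1, a dexamethasone-induced Ras-like GTPase, was at 111, 67.1 and 143 in Mrps12+/+ and 23.8, 14.3 and 13.5 in Mrps12ha/ha livers (-2.55 ± 0.38, adjusted p = 0.0722). Tnfrsf1b, a receptor for tumour necrosis factor, was at 2876, 2901 and 3611 in Mrps12+/+ and 1804, 1638 and 1524 in Mrps12ha/ha livers (-0.91 ± 0.14, adjusted p = 0.0722). The kinase gene Pim3, the histone chaperone gene Nap1l1, the GDP-mannose synthesis gene Gmppb and the single-stranded DNA binding gene Nabp1 had log2 fold changes of -0.82, -0.69, -0.81 and -1.39. Srp54a, a subunit of the signal recognition particle, had a log2 fold change of -0.61 ± 0.08 (adjusted p = 0.0584), but 72.5% of its 31-base stretches also occur in Srp54b.

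The largest differences by size were less even. Arrdc3, an α-arrestin, was at 2011, 4071 and 1586 in Mrps12+/+ and 8049, 21938 and 16732 in Mrps12ha/ha livers (2.61 ± 0.58, adjusted p = 0.132). Tnnt2, cardiac troponin T, was at 17.5, 25.1 and 12.2 in Mrps12+/+ and 95.2, 44.4 and 938 in Mrps12ha/ha livers, a log2 fold change of 3.11 ± 0.95 (adjusted p = 0.214) with mouse 3 far above the other Mrps12ha/ha livers, and 1.83 without it. Cyp2b13, a P450 that is female-biased in mouse liver, was at 7.0, 40.4 and 32.6 in Mrps12+/+ and 695, 161 and 224 in Mrps12ha/ha livers (3.72 ± 1.23, adjusted p = 0.245), and Ptgds, a prostaglandin D synthase, at 35.0, 14.6 and 0.8 in Mrps12+/+ and 45.2, 66.9 and 67.6 in Mrps12ha/ha livers (2.58 ± 0.92, adjusted p = 0.27). For Ptgds the log2 fold change was 1.34 without Mrps12+/+ mouse 3. In the other direction Myh4, the myosin of fast muscle fibres, was at 6181, 3957 and 0.8 in Mrps12+/+ livers and listed at 0 in all Mrps12ha/ha livers. Tnni2, fast troponin I, was at 1031, 1388 and 8.2 in Mrps12+/+ and 7.1, 2.0 and 3.1 in Mrps12ha/ha livers, so both were high in Mrps12+/+ mice 1 and 2, the livers with high muscle marker sums. Igdcc4 was at 47.6, 61.5 and 689.7 in Mrps12+/+ and 4.8, 6.8 and 12.5 in Mrps12ha/ha livers, high in mouse 3, which was also high in acute phase genes. Gpnmb, a gene of lipid-associated macrophages, was at 61.6, 32.3 and 319.6 in Mrps12+/+ and 9.5, 2.7 and 4.2 in Mrps12ha/ha livers (-3.90 ± 0.99, adjusted p = 0.155), with mouse 3 again the highest wild type. As a list, the Kupffer cell and macrophage markers lay around wild type (median -0.01). Of the 31-base stretches of Cyp2b13 40.8% also occur in other genes, as do 36.5% for Noct, 34.1% for Orm2 and 33.7% for Hamp below, so their values are uncertain in the same way.

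**Figure D2:**
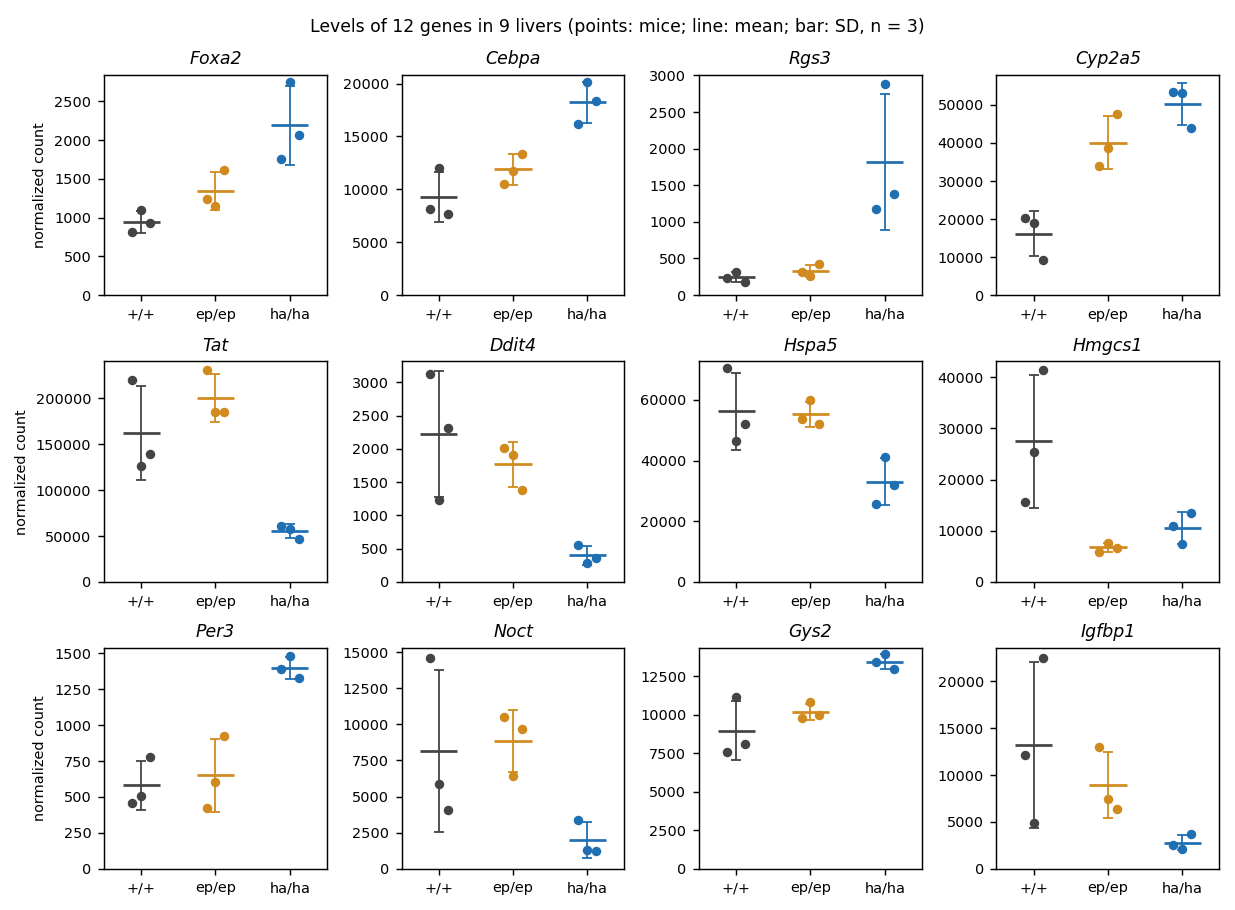
Normalized counts of 12 genes in each liver by genotype, with the mean and SD of 3 mice. The ha/ha livers lay above every +/+ liver for Foxa2, Cebpa, Rgs3, Cyp2a5, Per3 and Gys2 and below every +/+ liver for Tat, Ddit4, Hspa5, Hmgcs1, Noct and Igfbp1.

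Hepatic transcription factors lay on both sides of wild type. Of 22 tested, 8 were higher and 2 lower without overlap, with a median log2 fold change of 0.14 (0.28 without Mrps12+/+ mouse 3). Foxa2, a pioneer factor of the liver that promotes lipid oxidation in the fasted state, was at 814, 1098 and 929 in Mrps12+/+ and 1761, 2749 and 2063 in Mrps12ha/ha livers, means of 947 ± 143 and 2191 ± 506 (SD, n = 3), with a log2 fold change of 1.19 ± 0.19 (adjusted p = 0.0722). Its relative Foxa1 was at 501, 654 and 563 in Mrps12+/+ and 676, 1049.7 and 768 in Mrps12ha/ha livers (0.52 ± 0.17, and 0.34 without Mrps12ha/ha mouse 2). Within the C/EBP family the members went apart. Cebpa, the factor of the differentiated hepatocyte, was at 8165, 12005 and 7653 in Mrps12+/+ and 16189, 20126 and 18359 in Mrps12ha/ha livers (1.0 ± 0.18, adjusted p = 0.0935), all above wild type. Cebpb and Cebpd, which are induced in inflammation, were below wild type, Cebpd at 884, 861 and 1371 in Mrps12+/+ and 569, 347 and 422 in Mrps12ha/ha livers (-1.21 ± 0.22, adjusted p = 0.0982) and Cebpb with -0.59 ± 0.17 (adjusted p = 0.199). None of these genes passed the threshold. Without Mrps12+/+ mouse 3, the acute phase liver, the log2 fold changes were 1.19 for Foxa2, 0.87 for Cebpa and -1.0 for Cebpd.

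Genes of drug and steroid oxidation were mostly above wild type. Of 57 tested P450 genes of families 1 to 4, 19 were higher without overlap and 1, Cyp2a22, was lower (the background is 10.0% and 9.81%), with a median log2 fold change of 0.51. Mrps12ep/ep livers had a median of 0.315 for these genes against the same wild-type livers. Cyp3a25, a steroid and drug hydroxylase of the CYP3A family, was at 10783, 13249 and 8929 in Mrps12+/+ and 22491, 18971 and 18911 in Mrps12ha/ha livers (0.89 ± 0.15, adjusted p = 0.0851), and its close copy Cyp3a59 at 243, 349 and 485 in Mrps12+/+ and 1009, 705 and 842 in Mrps12ha/ha livers (1.29 ± 0.29, adjusted p = 0.132). Of the 31-base stretches of Cyp3a25, 41.2% also occur in Cyp3a59, so reads can be split between them. Cyp2c29, a CYP2C enzyme of arachidonic acid and drug oxidation, was at 28544, 29006 and 12509.5 in Mrps12+/+ and 46918, 62660 and 45196 in Mrps12ha/ha livers (1.23 ± 0.30, adjusted p = 0.149). Mouse 3 was the lowest wild-type liver for Cyp2a5, Cyp3a25 and Cyp2c29, and without it the median of the list was 0.38. Among 44 conjugation genes 11 were higher and 0 lower without overlap (median 0.20, 0.13 without Mrps12+/+ mouse 3), led by the glutathione transferase gene Gstt3 at 1974, 2606 and 1061 in Mrps12+/+ and 4617, 3163 and 4307 in Mrps12ha/ha livers (1.18 ± 0.29). The conjugation genes had a median of 0.194 in Mrps12ep/ep livers.

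Amino acid breakdown genes were also mostly above wild type, and Tat was the member below it without overlap. Of 54 tested, 16 were higher without overlap and 1 lower, with a median of 0.29, which was 0.07 without Mrps12+/+ mouse 3. In Mrps12ep/ep livers the median was larger, 0.395 against the same wild-type livers. Prodh, proline dehydrogenase of the mitochondrial matrix, was at 6086, 7706 and 5659 in Mrps12+/+ and 10548, 12335 and 10688 in Mrps12ha/ha livers (0.80 ± 0.14, adjusted p = 0.0851). Mccc2, a subunit of the leucine breakdown enzyme methylcrotonyl-CoA carboxylase, was at 3066, 3547 and 3387 in Mrps12+/+ and 5209.9, 4153 and 5371 in Mrps12ha/ha livers (0.55 ± 0.11, adjusted p = 0.118). Among 36 amino acid transporters, Slc43a1, a carrier of large neutral amino acids, was at 202, 205 and 150 in Mrps12+/+ and 467, 906 and 609 in Mrps12ha/ha livers (1.79 ± 0.39, adjusted p = 0.127). Slc38a2, the starvation-induced sodium-coupled carrier SNAT2, went the other way at 13024, 8232 and 11984 in Mrps12+/+ and 5191, 5170.2 and 4374 in Mrps12ha/ha livers (-1.15 ± 0.23, adjusted p = 0.116), and the list had a median of -0.06.

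Among genes of carbohydrate use, Gys2 lay above wild type and Pck1, Igfbp1 and Pdk4 below it, with no gene past the threshold. Gys2, liver glycogen synthase, was at 7609, 11146 and 8123 in Mrps12+/+ and 13409, 13962 and 12961 in Mrps12ha/ha livers (0.61 ± 0.14, adjusted p = 0.134). Pck1, the enzyme that commits carbon to gluconeogenesis, was at 205980.4, 176441 and 153521 in Mrps12+/+ and 148649.9, 116392 and 103773 in Mrps12ha/ha livers (-0.55 ± 0.20, adjusted p = 0.279). The Mrps12ha/ha livers did not overlap with wild type in either gene. Igfbp1, an insulin-repressed FoxO target, was at 12192, 4850.1 and 22518 in Mrps12+/+ and 2521, 2132 and 3731 in Mrps12ha/ha livers (-2.02 ± 0.50, adjusted p = 0.15). Pdk4, the kinase that shuts off pyruvate dehydrogenase in fasting, was at 944, 1919.7 and 2307 in Mrps12+/+ and 833, 522 and 481 in Mrps12ha/ha livers (-1.44 ± 0.39, adjusted p = 0.17). Pfkfb3, which makes the glycolytic activator fructose 2,6-bisphosphate, was below wild type at 2147, 2107 and 2412 in Mrps12+/+ and 1283, 780.1 and 734 in Mrps12ha/ha livers (-1.30 ± 0.30, adjusted p = 0.134). Of 28 genes of gluconeogenesis and glycolysis, 11 were higher and 3 lower without overlap (median 0.15). Their median in Mrps12ep/ep livers was 0.154. Of 18 insulin and FoxO targets, 2 were higher and 1 lower without overlap (median 0.10), and the lowest log2 fold change among them was -2.02.

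Of 23 fatty acid synthesis genes, 5 were higher and 0 lower without overlap, with a median log2 fold change of 0.48. The list median was 0.322 in Mrps12ep/ep livers against the same wild-type livers. Mlxipl, which encodes the glucose-responsive factor ChREBP, was at 14209.5, 14024 and 13179 in Mrps12+/+ and 19067, 21338 and 19585 in Mrps12ha/ha livers (0.53 ± 0.11, adjusted p = 0.12). Its target Pklr, liver pyruvate kinase, was at 14062, 17185 and 11669 in Mrps12+/+ and 24445, 31424 and 33759 in Mrps12ha/ha livers (1.07 ± 0.36, adjusted p = 0.249), and Dgat2, the last enzyme of triglyceride synthesis, at 17962, 18949 and 17523 in Mrps12+/+ and 25257, 27022 and 25833 in Mrps12ha/ha livers (0.52 ± 0.10, adjusted p = 0.113). The wild-type livers varied little for Mlxipl and Dgat2, and all Mrps12ha/ha livers were above them. Angptl8, a feeding-induced inhibitor of lipoprotein lipase, was at 986, 813 and 497 in Mrps12+/+ and 1457, 1999 and 3203 in Mrps12ha/ha livers (1.52 ± 0.31, adjusted p = 0.117). Of 19 apolipoprotein and lipoprotein assembly genes 6 were higher without overlap and 0 lower, among them Apom at 5884, 5415 and 4957 in Mrps12+/+ and 6598, 8468 and 8425 in Mrps12ha/ha livers (0.53 ± 0.12) and Apoc3, an inhibitor of triglyceride clearance, at 62252, 79327 and 49011 in Mrps12+/+ and 83853, 88196 and 96650.4 in Mrps12ha/ha livers (0.52 ± 0.22). The median of that list was 0.177 in Mrps12ha/ha and 0.192 in Mrps12ep/ep livers. Plin4, a lipid droplet coat gene, was at 5715, 6088 and 15162 in Mrps12+/+ and 4269.8, 1874 and 2557 in Mrps12ha/ha livers (-1.56 ± 0.40, adjusted p = 0.159).

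Cholesterol synthesis genes were below wild type. Of 20 tested, 20 had a log2 fold change under 0 and 11 were lower without overlap, with a median of -0.88. By limma 0 were called, and 16 had an unadjusted p under 0.05. Hmgcs1, the cytosolic HMG-CoA synthase, was at 15579, 25434 and 41326 in Mrps12+/+ and 10839, 7319 and 13446 in Mrps12ha/ha livers (-1.31 ± 0.33, adjusted p = 0.152). Idi1, which isomerises isopentenyl diphosphate, was at 11105, 13110.2 and 21914 in Mrps12+/+ and 6248, 3473 and 8215 in Mrps12ha/ha livers (-1.39 ± 0.32, adjusted p = 0.134), and Sqle, squalene epoxidase, at 2470.4, 2958 and 9253 in Mrps12+/+ and 1495, 304 and 2454 in Mrps12ha/ha livers (-1.97 ± 0.75, adjusted p = 0.295, and -1.09 without Mrps12ha/ha mouse 2). Mouse 3 was the highest wild-type liver for all 3 genes, and without it the median of the list was -0.55, against -0.93 without mouse 1 and -0.96 without mouse 2. The same list had a median of -1.49 in Mrps12ep/ep livers against the same wild-type livers, and in the direct contrast of the mutants the Mrps12ha/ha median was 0.67 above Mrps12ep/ep, again with no member called. Cyp7a1, the rate-limiting enzyme of bile acid synthesis, was at 4492, 2875 and 1594 in Mrps12+/+ and 402, 676 and 758 in Mrps12ha/ha livers (-2.21 ± 0.59, adjusted p = 0.169). It did not stand for the other sterol efflux and bile acid genes. Of 20 tested, 4 were higher and 1 lower without overlap, with a median of 0.15 (-0.02 without Mrps12+/+ mouse 3). The separate list of SREBP2 targets and regulators lay around wild type. Of its 10 tested genes, 2 were higher and 0 lower without overlap, with a median of -0.03. Sterol synthesis genes are induced by SREBP2 at a sterol regulatory element. The form TCACNCCAC, searched on both strands, was found in the 250 bases before the start of 1 of the 15 cholesterol synthesis list members with a window (6.67%) and of 1.29% of the 11245 tested genes with one. That member was Hmgcs1, on chromosome 13 (RefSeq, GRCm38.p6 chr13:119690184-119690252, + strand), shown here because it was the match of the list, with the element in capitals.
Hmgcs1: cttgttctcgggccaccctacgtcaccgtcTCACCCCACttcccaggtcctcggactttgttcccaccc

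The endoplasmic reticulum (ER) unfolded protein response, in which the sensors IRE1, PERK and ATF6 raise chaperone synthesis, was below wild type as a list. Of 24 tested genes, 24 had a log2 fold change under 0 and 9 were lower without overlap, none higher, with a median of -0.51. By limma 0 were called, and 15 had an unadjusted p under 0.05. Hspa5, the main ER chaperone BiP, was at 70448, 46367 and 51928 in Mrps12+/+ and 25769, 41189 and 31973 in Mrps12ha/ha livers (-0.77 ± 0.20, adjusted p = 0.168). Creld2, an ER disulphide isomerase, was at 6069, 3712 and 3679 in Mrps12+/+ and 1319, 2469 and 1816 in Mrps12ha/ha livers (-1.27 ± 0.32, adjusted p = 0.158), and Dnajb9, a BiP co-chaperone, at 7209, 5219.7 and 5177 in Mrps12+/+ and 2699, 3606 and 3355 in Mrps12ha/ha livers (-0.86 ± 0.16, adjusted p = 0.106). Mouse 2 was the highest of the Mrps12ha/ha livers for each. Sdf2l1, a member of ER chaperone complexes, was at 2529.9, 1147 and 1796 in Mrps12+/+ and 633, 1098 and 733 in Mrps12ha/ha livers, and Manf, a secreted ER stress factor, at 8964, 5885 and 6509 in Mrps12+/+ and 2951, 5133 and 4053 in Mrps12ha/ha livers. The median of the list was -0.44, -0.63 and -0.45 without Mrps12+/+ mouse 1, 2 and 3, and in Mrps12ep/ep livers it was -0.05. In the direct contrast of Mrps12ha/ha with Mrps12ep/ep the median was -0.44, with none called.

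Promoters of ER chaperone genes are known for an element, the ER stress response element (ERSE), which is CCAAT and CCACG set 9 bases apart and is bound by NF-Y and ATF6. Searched on both strands in the 250 bases before the start, it was found in 9 of 21 list members with a window (42.9%) and in 19 of 11245 tested genes (0.169%). The 9 were Hspa5, Hsp90b1, Pdia6, Calr, Canx, Dnajc3, Creld2, Derl3 and Syvn1. Of them 3, Hspa5, Calr and Creld2, were lower without overlap in the Mrps12ha/ha livers, against 4 of the 12 members without a match. Hsp90b1, the ER form of the HSP90 chaperone, was at 61751, 43525 and 59237 in Mrps12+/+ and 32683, 45652 and 36036 in Mrps12ha/ha livers, and Calr, the lectin chaperone calreticulin, at 61106, 50826 and 74349 in Mrps12+/+ and 39809, 49314 and 40625 in Mrps12ha/ha livers. The stretches around the element are shown for 4 of them, from chr2:34771995-34772073 (+ strand), chr10:86705503-86705581 (- strand), chr8:84847045-84847123 (- strand) and chr15:88819490-88819568 (+ strand) of GRCm38.p6, from RefSeq, read along each gene's strand with the element in capitals. The capitals read from CCAAT to CCACG in Hspa5 and in the reverse complement in the other 3.
Hspa5: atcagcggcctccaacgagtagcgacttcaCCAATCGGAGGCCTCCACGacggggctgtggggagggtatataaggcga
Hsp90b1: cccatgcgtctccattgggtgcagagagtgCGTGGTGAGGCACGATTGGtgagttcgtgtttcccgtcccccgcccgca
Calr: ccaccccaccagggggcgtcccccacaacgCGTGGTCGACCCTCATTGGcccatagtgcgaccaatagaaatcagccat
Creld2: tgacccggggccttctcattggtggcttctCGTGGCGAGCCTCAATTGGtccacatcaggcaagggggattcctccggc

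Stress factors downstream of eIF2α and the heat shock factors followed the same direction in part. Of 36 integrated stress response genes 9 were lower and 2 higher without overlap (median -0.21). Atf4, the central factor of the response, was at 6125, 5411 and 6149 in Mrps12+/+ and 3899, 3822 and 4975 in Mrps12ha/ha livers (-0.49 ± 0.14, adjusted p = 0.195), and Ddit3, which encodes CHOP, at 1033, 806 and 820.2 in Mrps12+/+ and 464, 605 and 556 in Mrps12ha/ha livers (-0.71 ± 0.22, adjusted p = 0.212). Trib3, a pseudokinase that is a target of both, was at 297, 378 and 278 in Mrps12+/+ and 497, 529 and 501 in Mrps12ha/ha livers (0.69 ± 0.25, adjusted p = 0.27), above wild type. Of 18 cytosolic heat shock genes 7 were lower and 0 higher without overlap (median -0.28, -0.17 without Mrps12+/+ mouse 1), with the co-chaperone gene Bag3 at 4355, 3498 and 3497 in Mrps12+/+ and 2349, 2009 and 2401 in Mrps12ha/ha livers (-0.74 ± 0.14, adjusted p = 0.106). Genes of the mitochondrial unfolded protein response and its proteases lay around wild type. Their 20 tested members had a median of 0.01, a range of -0.12 to 0.25 and 1 gene higher without overlap.

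Respiratory chain messages from the nucleus were a little above wild type. All 36 tested complex I subunits had a log2 fold change above 0, with a median of 0.16 (0.24 without Mrps12+/+ mouse 2). Only 4 of the 36 were higher without overlap, a share near the 10.0% over all genes, and by limma 0 had an unadjusted p under 0.05. For complexes II to V the median was 0.16 and 13 of 42 were higher without overlap, none lower. In Mrps12ep/ep livers the medians were 0.099 for complex I and 0.052 for complexes II to V. Sdhb, the iron-sulphur subunit of complex II, was at 8029, 8805 and 5873 in Mrps12+/+ and 9911, 10605 and 9708 in Mrps12ha/ha livers (0.43 ± 0.15, adjusted p = 0.251, and 0.26 without Mrps12+/+ mouse 3). Mitoribosomal protein genes were near 0, with medians of 0.06 over 33 small-subunit and 0.03 over 49 large-subunit genes. Ppargc1b, a coactivator of mitochondrial and lipogenic genes, was at 106, 150.4 and 24.5 in Mrps12+/+ and 376, 557 and 321 in Mrps12ha/ha livers (2.45 ± 0.63, adjusted p = 0.158), with mouse 3 the lowest wild type. Transcripts made from mitochondrial DNA were not analysed here.

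Clock genes pointed in both directions. Of 16 core clock genes 6 were higher and 1 lower without overlap (median 0.20, 0.05 without Mrps12+/+ mouse 2), and of 12 output genes 6 were higher and 1 lower. The core clock median was 0.188 in Mrps12ep/ep livers, and the output medians were 0.197 in Mrps12ha/ha and 0.069 in Mrps12ep/ep livers. Per3, a period gene, was at 459.7, 504 and 775 in Mrps12+/+ and 1389.9, 1480.4 and 1327 in Mrps12ha/ha livers (1.31 ± 0.28, adjusted p = 0.119). Dbp, a PAR-bZIP factor of the output loop that binds D-boxes, was at 2393, 4431 and 4526 in Mrps12+/+ and 6926, 9149 and 7899 in Mrps12ha/ha livers (1.13 ± 0.31, adjusted p = 0.182), and its relative Tef at 5429, 5512 and 6013 in Mrps12+/+ and 7959, 8902 and 7336 in Mrps12ha/ha livers (0.51 ± 0.12). Bhlhe41, the repressor DEC2, was at 49.0, 88.9 and 104 in Mrps12+/+ and 179, 469 and 246 in Mrps12ha/ha livers (1.82 ± 0.55, adjusted p = 0.21). Noct, an NADP(H) phosphatase with a strong daily rhythm in liver, was far below wild type at 14579.6, 5871 and 4039 in Mrps12+/+ and 3396, 1318 and 1240.4 in Mrps12ha/ha livers (-1.99 ± 0.50, adjusted p = 0.152). The lights were on from 7 am to 7 pm, but the hour of collection is not given in the sources used here, so genotype and hour cannot be told apart for these genes.

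The D-box in the form TTATGNAA was found in the 250 bases before the start of 2.58% of the 11245 genes, of 2 of 12 core clock genes (16.7%), Per1 and Per3, and of 1 of 11 output genes, Noct. Per3 is shown as the D-box holder furthest above wild type, from chr4:151044786-151044853 of GRCm38.p6 (- strand), with 1 of its 2 matches in capitals.
Per3: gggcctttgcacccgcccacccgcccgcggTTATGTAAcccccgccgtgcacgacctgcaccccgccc

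Immediate early genes, which answer acute stimuli within minutes, were below wild type, with 8 of 23 lower and 0 higher without overlap and a median of -0.65. Against the same wild-type livers the Mrps12ep/ep median was -0.514. Klf4, a zinc finger factor, was at 215, 172 and 101 in Mrps12+/+ and 73.8, 38.2 and 41.6 in Mrps12ha/ha livers (-1.64 ± 0.34, adjusted p = 0.119), and Dusp1, a MAP kinase phosphatase, at 9799, 5409 and 3998 in Mrps12+/+ and 2418, 2052 and 3121 in Mrps12ha/ha livers (-1.26 ± 0.35, adjusted p = 0.184). The AP-1 gene Fos was at 314, 162 and 272 in Mrps12+/+ and 131, 145 and 101 in Mrps12ha/ha livers (-0.95 ± 0.26, adjusted p = 0.186). The highest wild-type liver for these 3 was mouse 1.

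Growth hormone targets were above wild type in part. Of 23 tested, 6 were higher and 1 lower without overlap (median 0.48, 0.26 without Mrps12+/+ mouse 3 and 0.78 without mouse 2). Their median in Mrps12ep/ep livers was 0.22. Socs2, a STAT5-induced inhibitor of the growth hormone receptor, was at 281, 562 and 473 in Mrps12+/+ and 814, 1747 and 989 in Mrps12ha/ha livers (1.41 ± 0.54, adjusted p = 0.295). Bcl6, a repressor that growth hormone lowers, was at 2949, 848 and 1040.3 in Mrps12+/+ and 588, 502 and 452 in Mrps12ha/ha livers (-1.43 ± 0.59, adjusted p = 0.327, and -0.88 without Mrps12+/+ mouse 1). Igfals, which encodes the acid-labile subunit that carries IGF1 in plasma, was at 2391, 3383 and 2462 in Mrps12+/+ and 3839, 4851 and 3922 in Mrps12ha/ha livers (0.62 ± 0.20, adjusted p = 0.227).

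**Figure D3:**
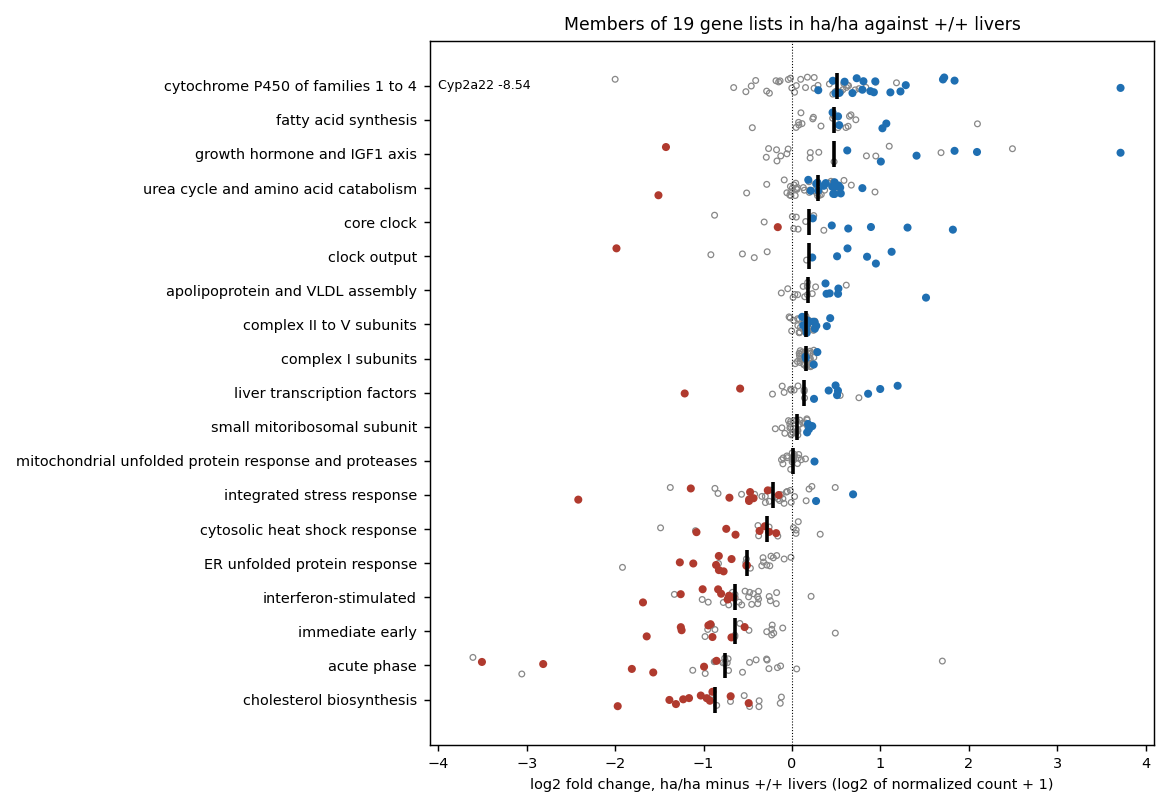
Log2 fold change (ha/ha minus +/+ livers) of every tested member of 19 gene lists, with a black bar at the median. Filled points are genes whose 3 ha/ha and 3 +/+ values do not overlap (blue higher, red lower), open points overlap, and Cyp2a22 lies outside the axis at -8.54. Cholesterol, acute phase, immediate early, interferon-stimulated and ER stress genes lie mostly left of 0 and P450 genes mostly right.

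Acute phase and interferon-stimulated lists were below wild type, and their medians moved with single wild-type livers. The acute phase list had a median of -0.76, with 6 of 28 lower without overlap, but the median was -0.08 without Mrps12+/+ mouse 3. In Mrps12ep/ep livers against all 3 wild-type livers the acute phase median was -0.596. Lcn2, lipocalin 2, was at 2858, 981 and 114073 in Mrps12+/+ and 862, 319 and 786 in Mrps12ha/ha livers, and Orm2, an orosomucoid, at 1823, 556 and 41639 in Mrps12+/+ and 505, 434 and 550 in Mrps12ha/ha livers, with Mrps12+/+ mouse 3 the highest for both. Their log2 fold changes were -3.51 and -2.82, and -1.48 and -1.03 without that mouse. Saa3, the serum amyloid A of macrophages and injured tissue, was at 836, 163 and 638 in Mrps12+/+ and 102, 149.5 and 129 in Mrps12ha/ha livers (-1.81 ± 0.51, adjusted p = 0.188), with mouse 1 the highest. Hamp, the iron hormone hepcidin, was at 12581, 12308 and 7818 in Mrps12+/+ and 4227, 4926 and 7337 in Mrps12ha/ha livers (-1.0 ± 0.41, adjusted p = 0.321), and here mouse 3 was the lowest wild type. Of 33 interferon-stimulated genes 8 were lower and 0 higher without overlap (median -0.64), and the median was -0.26 without mouse 1. That list had a median of -0.368 in Mrps12ep/ep livers. Ifit1, an antiviral RNA-binding protein, was at 893, 607 and 1256 in Mrps12+/+ and 533, 360.4 and 430.4 in Mrps12ha/ha livers (-1.01 ± 0.27, adjusted p = 0.173). The 38 complement and coagulation genes lay around wild type, with 19 above and 19 below 0, and 3 higher and 1 lower without overlap. Of 10 adipocyte markers 1 was higher and 4 were lower without overlap (median -1.33, -0.75 without Mrps12+/+ mouse 3 and -0.86 without Mrps12ha/ha mouse 2), while the summed normalized count of the 12 markers found was 168355, 211176 and 68638 in Mrps12+/+ and 226539, 238764 and 203222 in Mrps12ha/ha livers. The adipocyte median was -1.22 in Mrps12ep/ep livers. Lep, leptin, was at 30.1, 204 and 6.5 in Mrps12+/+ livers and listed at 0 in all Mrps12ha/ha livers, and Adipoq, adiponectin, was at 34.3, 118 and 2.4 in Mrps12+/+ and 0, 0.7 and 0 in Mrps12ha/ha livers, both highest in the wild-type mouse 2 that was also high in muscle genes. Cfd, complement factor D, was at 190.3, 489 and 408 in Mrps12+/+ and 76.2, 56.0 and 124 in Mrps12ha/ha livers (-2.04 ± 0.39, adjusted p = 0.106).

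The direct contrast of Mrps12ha/ha with Mrps12ep/ep livers called 1 gene of 15314 (0.00653%). It was Gm10524, a transcript of chromosome 18 that the annotation marks as still to be tested by experiment (chr18:82692284-82694176, + strand), at 1545, 1841 and 1422 in Mrps12+/+, 2522, 3134 and 2171 in Mrps12ep/ep and 521, 695 and 489 in Mrps12ha/ha livers. It fell by 2.20 on the log2 scale against Mrps12ep/ep (SE 0.18, adjusted p = 0.00623) but was not called without Mrps12ep/ep mouse 1 or without Mrps12ha/ha mouse 3, where no gene was (873 and 803 at an unadjusted p of 0.05), and its log2 fold change against wild type was -1.50 ± 0.18 (adjusted p = 0.0584). The long noncoding RNA AC158975.2, on the same strand next to it (chr18:82694287-82701336), was at 11416, 9080 and 11867 in Mrps12+/+ and 3215, 4832 and 2742 in Mrps12ha/ha livers, with a log2 fold change of -1.62 ± 0.22 against wild type and -1.83 (adjusted p = 0.066) against Mrps12ep/ep. Most of its sequence is not its own, since 89.2% of its 31-base stretches also occur in Gm42427 on chromosome 5, which was named after its values were seen. Gm42427 was at 42352, 36516 and 51359.6 in Mrps12+/+ and 18476, 19252 and 15826 in Mrps12ha/ha livers, and how far these counts are independent was not tested. Tat differed from Mrps12ep/ep livers by -1.85 (adjusted p = 0.0706), Ddit4 by -2.17 (adjusted p = 0.151), Trp53inp1 by -1.10 (adjusted p = 0.119) and Rgs3 by 2.37 (adjusted p = 0.109), none of them past the threshold. For Foxa2 the difference from Mrps12ep/ep was 0.70 (adjusted p = 0.417). Foxa2 was at 1243.3, 1153.5 and 1615.7 in Mrps12ep/ep livers, all above wild type. Bahcc1, Depdc7, Cxxc5, Cyp3a25 and Cela1 were also above wild type without overlap in Mrps12ep/ep livers. Srp54a, Nap1l1, Rasd1 and Nabp1 were below it. Rgs3, Gata4, Ttbk1, Tango2, Trp53inp1, Ddit4, Tnfrsf1b, Pim3 and Gmppb overlapped between Mrps12ep/ep and wild type.

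The hearts of 3 Mrps12ha/ha and 3 Mrps12+/+ mice were normalized apart from the livers, so no test across the tissues was made. Log2 fold changes in heart were 0.71 for Rgs3, -1.09 for Ddit4, -1.01 for Srp54a and 0.88 for Per3, of the same sign as in liver. They were -0.45 for Gata4, -1.31 for Depdc7 and -0.67 for Ttbk1, of the opposite sign. Reads assigned to genes were 17916522, 11202866 and 47813327 in the Mrps12ha/ha hearts and 38341211, 37101153 and 51480273 in the Mrps12+/+ hearts. Depdc7 and Ttbk1 had few reads in heart, so their heart values are uncertain. Foxa2 and Cyp2a22 were below the filter in heart. The hearts of the Mrps12ha/ha mice had a median log2 fold change of 0.30 for complex I subunits and -0.08 for ER unfolded protein response genes.

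**Figure D4:**
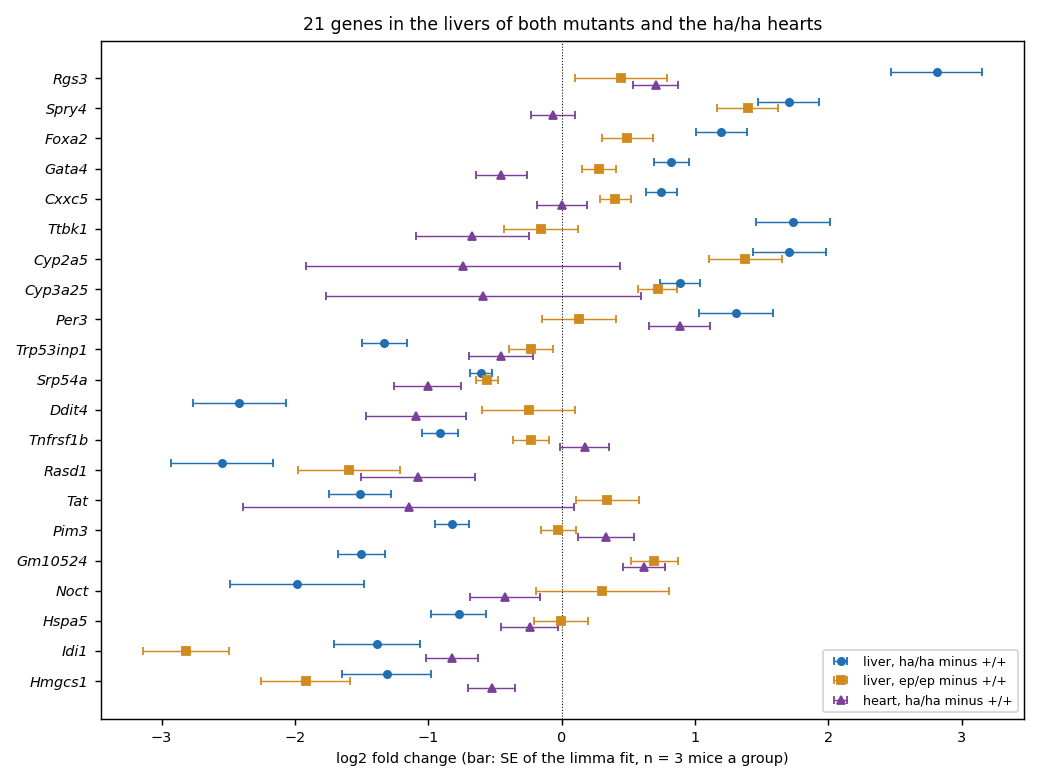
Log2 fold changes with the SE of the fit for 21 genes in ha/ha livers (circles), ep/ep livers (squares) and ha/ha hearts (triangles), each against +/+ (n = 3 mice a group), with both liver contrasts sharing the +/+ livers. Rgs3, Ttbk1, Per3, Trp53inp1, Ddit4, Tat and Noct lay further from 0 in ha/ha than in ep/ep livers, and Idi1 and Hmgcs1 lay further from 0 in ep/ep livers.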

How the data were processed

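Whole heart and liver RNA of 3 mice of each of 3 genotypes was sequenced by the authors in 3 technical libraries per mouse and tissue, 54 libraries in all, and 1 pooled column per mouse and tissue was used here. The authors trimmed reads with Trim Galore 0.4.1 and cutadapt 1.18, checked them with FastQC 0.11.8, quantified them against GENCODE transcripts of GRCm38.p6 with Salmon 1.1.0, with strand and with correction for sequence and GC bias, and scaled the counts within each tissue with DESeq2, leaving out mitochondrial transcripts. The deposited values are therefore normalized counts, and heart and liver were scaled apart. The authors' own tables of fold changes and p-values were not used. Here log2(normalized count + 1) was tested with limma 3.58.1 (R 4.3.3), with a trend on mean level, over the 9 livers in 1 fit with genotype as the only term, for the 15314 genes with a mean of at least 10, with Benjamini-Hochberg adjustment and a threshold of 0.05. The code was tested on simulated data.

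Whole reads were recovered from the normalized counts (between 99.52% and 99.98% of a liver's values were whole to within 0.051 normalized counts) and used for depth and an alternative test. No replicate pair agreed within sampling noise. Named genes were Mrps12, Foxa2, Slc43a1 and Cyp2a5, all genes past the threshold, in each direction the 12 of smallest p and the 5 of largest change among annotated genes with a mean of at least 50 and groups that do not overlap, and members of 51 gene lists. The comparison, the members and the lists were chosen with earlier results of these data known. The p-values measure the spread between mice. Some list members are not reported here by name. Promoter sequences are from RefSeq.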

Additional observations from a re-analysis of the deposited data

Results flagged for a closer look

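In 9 of 120 genes examined that were tested in both tissues (7.5%), every Mrps12ha/ha liver lay on one side of every Mrps12+/+ liver and every Mrps12ha/ha heart on the other side of the Mrps12+/+ hearts. Over all 14070 genes tested in both tissues there were 181 such genes (1.29%), and many of the genes examined had been chosen because their liver groups do not overlap, so the shares cannot be compared. Heart and liver were normalized apart, so the difference between the tissues was not tested. The log2 fold changes were 2.61 in liver and -0.86 in heart for Arrdc3, 0.70 and -1.31 for Depdc7, and 1.73 and -0.67 for Ttbk1. Gys2, the liver form of glycogen synthase, had 0.61 in liver and -2.58 in heart, and Klf9, a glucocorticoid-induced factor, 0.49 and -0.38. The reverse order was seen for Gm10524, with -1.50 in liver and 0.61 in heart, and for Ddit3, with -0.71 and 0.80. Ccr2, a monocyte chemokine receptor, had -1.36 in liver and 0.89 in heart, and Usp18, an interferon-induced protease, -0.80 and 0.49.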

How the results depend on the processing

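For Mrps12ha/ha against Mrps12+/+ livers, Cyp2a22 stayed the only call with a pseudocount of 8, quantile normalization, only these genotypes in the fit or a robust estimate of the spread. Calls were 0 with a pseudocount of 0.1 (2147 genes at an unadjusted p of 0.05), 0 with a mean of at least 50 (1865 unadjusted), which removes genes with low means, and 0 with limma-voom on recovered reads (2174 unadjusted). They were 3 without the filter, 4 with array weights, 49 at an adjusted p of 0.1, and between 0 and 90 when 1 liver was left out. Leaving out both wild-type livers of high muscle genes, an alternative chosen after seeing the data like the threshold of 0.1, gave 1062. With the replicate number as a block there were 7, among them Gm10524, Trp53inp1, Nabp1, Cyp2a22 and Ddit4. The numbers name mice and are not known to pair them. Same-numbered Mrps12+/+ and Mrps12ha/ha livers deviated together with correlations of 0.01, -0.015 and -0.133. These values, taken over all genes, cannot exclude a pairing that acts on some of them. For Mrps12ha/ha against Mrps12ep/ep livers the calls were 18 with only these genotypes in the fit, 6 with the replicate block, 13 with array weights, 4 with a robust spread, 5 at an adjusted p of 0.1 and between 0 and 4 when 1 liver was left out, and 1 otherwise. The cause of these changes was not tested. Over 135 genes examined, those with printed values among them, no log2 fold change turned its sign under any alternative. Many of these genes were chosen because their groups do not overlap, and for those leaving livers out could not turn the sign. Outside the settings that leave livers out, single genes newly passed the threshold in 8 cases and no longer passed it in 3. List medians that turned their sign in at least 1 alternative were those of clock output genes (-0.06 without both muscle livers), skeletal muscle markers (0.05 without both), cell cycle genes (-0.03 without Mrps12ha/ha mouse 1), Kupffer cell and macrophage markers (between -0.41 and 0.37), complement and coagulation genes, amino acid transporters, the mitochondrial unfolded protein response and the large mitoribosomal subunit among the lists described. The medians of SREBP2 targets and regulators (between -0.09 and 0.03) and of sterol efflux and bile acid genes (-0.02 without Mrps12+/+ mouse 3) also turned. edgeR and DESeq2 on recovered reads were not run. Precision is limited by 3 mice per genotype and, for genes of few reads, by depth.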

Other observations

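Of 40 cell cycle genes 4 were higher and 4 lower without overlap, shares near those over all genes, with a median of 0.11 (-0.03 without Mrps12ha/ha mouse 1). Tk1, the thymidine kinase of S phase, was at 735, 384 and 145 in Mrps12+/+ and 816, 1165 and 922 in Mrps12ha/ha livers (1.47 ± 0.53, adjusted p = 0.278), and Rrm2, a subunit of ribonucleotide reductase, at 341, 257 and 114 in Mrps12+/+ and 607, 352 and 413 in Mrps12ha/ha livers (1.04 ± 0.41). Both lay above all wild-type livers, with log2 fold changes of 0.85 and 0.59 without Mrps12+/+ mouse 3. Ccnd1, cyclin D1, was at 1777, 1465 and 1777 in Mrps12+/+ and 1145, 747 and 1069 in Mrps12ha/ha livers (-0.78 ± 0.17, adjusted p = 0.119). Gadd45g, a stress-induced growth arrest gene, was at 5121, 4083 and 6711 in Mrps12+/+ and 1347, 354 and 513 in Mrps12ha/ha livers (-3.05 ± 0.54, adjusted p = 0.0963), below every wild-type liver.

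Genes of the other cells of the liver were described by their markers. Of 20 Kupffer cell and macrophage markers 10 were above and 10 below 0, with a median of -0.01. Only Gpnmb and Ccr2 were lower without overlap, 2 of 20, a share near the 9.81% over all genes, and 0 were higher. Of 15 sinusoidal endothelial markers 4 were higher and 0 lower without overlap (median 0.46, but 0.13 without Mrps12+/+ mouse 3), and Stab2, a scavenger receptor for hyaluronan, was at 1979, 2018 and 1759 in Mrps12+/+ and 2480, 2680.3 and 2796 in Mrps12ha/ha livers (0.47 ± 0.09, adjusted p = 0.106). Of 24 stellate cell and collagen genes 2 were lower and 0 higher without overlap (median -0.35, and -0.58 or -0.19 without Mrps12ha/ha mouse 1 or 2), with Col1a2, a chain of type I collagen, at 1422, 1096 and 1395 in Mrps12+/+ and 1081, 531 and 608 in Mrps12ha/ha livers (-0.88 ± 0.25, adjusted p = 0.188). In Mrps12ep/ep livers the median was 0.288 for the endothelial markers and -0.28 for the stellate cell and collagen genes.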
